A study of Mus musculus with 4 samples.

Results

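The transition from G2 phase into mitosis is set by a small group of kinases and phosphatases that act on the cyclin-dependent kinase Cdk1, and 8 of their genes were measured here, out of 750 gene probes in all: Wee1, Pkmyt1, Cdc25a, Cdc25b, Cdc25c, Chek1, Chek2 and Ttk. They were chosen by name, with earlier results of these data known. They are the inhibitory kinases, the activating phosphatases, the checkpoint kinases that control both, and a kinase of the spindle checkpoint. The study asked whether tumor cells differ where regulatory T (Treg) cells of the host lack Blimp1, by counting transcripts of cancer pathway genes in CD45− live cells sorted from tumors of B16-OVA, a transplantable mouse melanoma line that expresses ovalbumin. All mice were C57BL/6 and 5 to 10 weeks old, and received the tumor cells under the skin and NP-OVA antigen in CFA at day 0, then NP-OVA in IFA at day 7. The 2 control samples came from Foxp3YFP-Cre mice (WT), and the other 2 samples from Prdm1fl/flFoxp3YFP-Cre mice (KO), so that Foxp3-driven Cre was carried by each group and floxed Prdm1, the gene of Blimp1, by the KO group alone. Tumors had reached a volume of up to 1.5 cm3. The same tumor line was given to both genotypes, and the deletion belongs to the Foxp3+ cells of the host, which the CD45− gate leaves out.

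Wee1 and Pkmyt1 (Myt1) keep Cdk1 inactive by phosphorylating it next to its ATP site, and the Cdc25 phosphatases remove these phosphates so that cells can enter mitosis. Chek1 (Chk1) and Chek2 (Chk2), switched on by the damage kinases Atr and Atm, phosphorylate the Cdc25 proteins and so hold the cycle after DNA damage or replication stress. Ttk (Mps1) acts later, at the kinetochore, where it starts the signal that delays chromosome separation. Much of this control works on the proteins, which a count of transcripts does not see.

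The nCounter assay counts barcoded probes on RNA without amplification. Summed over gene probes, the samples gave 626056 to 692284 counts. Levels are stated as scaled counts, for which each sample was brought to a common level of the 20 housekeeping probes. Of the 750 gene probes, 446 lay above background (17.5 to 21.9 counts per sample) in at least 2 of the 4 samples and were tested, and all 8 genes of this group lay above it in all 4 samples, with 109 to 533 counts each. Prdm1 was counted 9 times in WT 1 and WT 2, 9 times in KO 1 and 6 times in KO 2, all below background, so its probe checks neither the deletion nor the labels. Of 4 melanocyte lineage probes, 3 lay above background: Pax3 at 1576 to 1979 scaled counts, Met at 1052 to 1961 and Kit at 33.3 to 42.5. So did 3 of 15 leukocyte probes, Il3ra at 66.3 to 105, Pik3cd at 40.0 to 78.0 and Plcg2 at 37.1 to 73.9. Of 2 endothelial probes (Kdr and Flt1), 0 did. The marker genes Mitf, Tyr and Ptprc were not analysed here. In these bulk samples, fewer cells of a type and less RNA per cell cannot be told apart. KO 2 stood apart, and WT 1 was nearer to KO 1 than to WT 2, with a chi-square per degree of freedom of 12.8 against 31.8. The median absolute log2 difference between KO 2 and KO 1 over the tested genes was 0.21, against 0.11 between WT 2 and WT 1, and results that rest on KO 2 are given with and without it.

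Wee1 was the member at an unadjusted p under 0.05 for KO against WT in edgeR, and it was higher in KO samples. Wee1 was at 152 and 153 scaled counts in the WT samples and at 198 and 264 in the KO samples. Both KO samples thus lay above both WT samples, and KO 2 was the highest. The fit gave a 1.52-fold higher level in KO samples, or 0.60 ± 0.19 (SE) in log2 units, and its 95% interval ran from 0.15 to 1.05. The edgeR test, which draws on all tested genes to estimate the spread, gave an unadjusted p of 0.0176 and an adjusted p of 0.538 with 2 samples per group. The unequal-variance test, which uses the spread of Wee1 alone, gave an unadjusted p of 0.218 and an adjusted p of 0.891. The difference did not pass the adjusted threshold of 0.05. Of all 446 tested genes 0 (0%) passed it, the lowest adjusted p being 0.415, while 33 lay at an unadjusted p under 0.05 in edgeR and DESeq2 called 3. At the unadjusted threshold, 13 of the 446 genes (2.91%) were higher in KO samples, beside 1 of the 8 members and 0 members that were lower. Wee1 ranked 14 by p, and 15 tested genes had a larger log2 fold change.

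The interval of the Wee1 count in KO 2 lay above those of the other samples. The 95% Poisson intervals, which cover counting error only, reached from 129 to 177 and from 129 to 179.7 scaled counts in WT 1 and WT 2, from 170.3 to 228 in KO 1 and from 234 to 297 in KO 2. Against the mean of the WT samples, Wee1 was higher by 0.38 on the log2 scale in KO 1 and by 0.79 in KO 2. Leaving out KO 2 lowered the fitted value to 0.37, and leaving out KO 1 brought it to 0.79. Each of these fits holds 1 KO sample and so no spread between KO samples, and its p-value is not given. The direction of Wee1 was thus the same in each KO sample, with a size that differed between them.

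**Figure D1:**
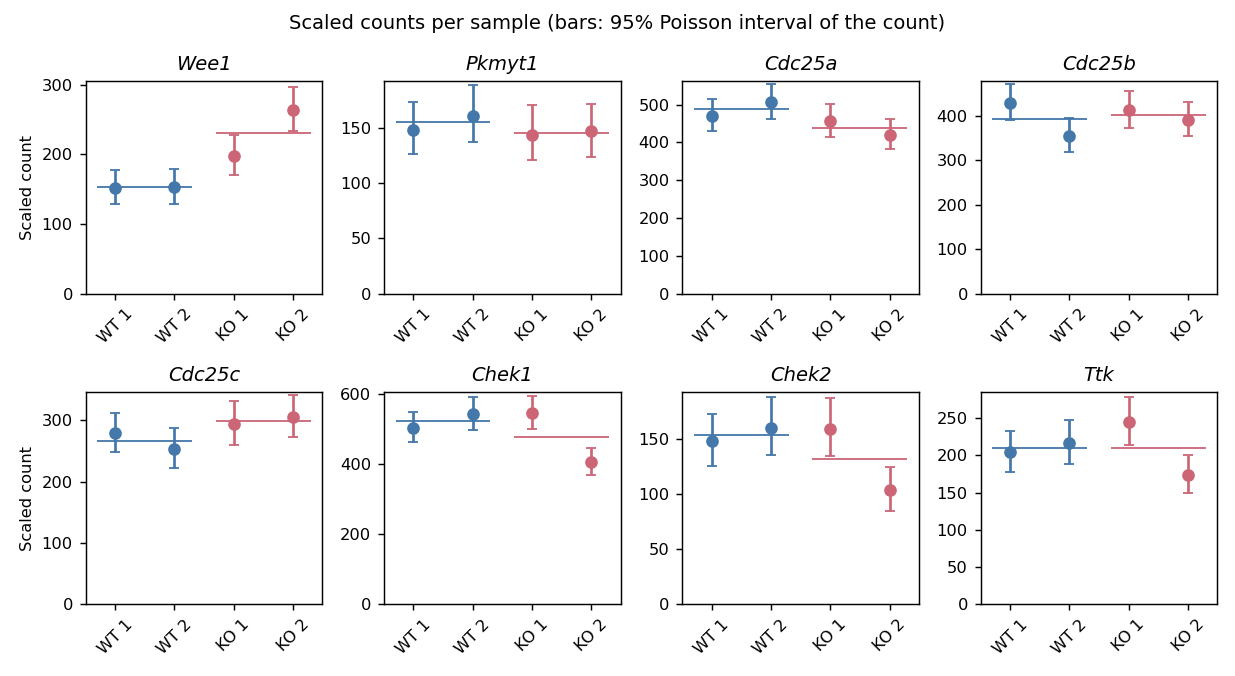
Scaled counts (y axis, from 0) of the 8 genes in WT 1, WT 2, KO 1 and KO 2 (x axis), with points for samples, bars for the 95% Poisson interval of the count and horizontal lines for group means. Wee1 in both KO samples lies above both WT samples, and Chek1, Chek2 and Ttk are lowest in KO 2.

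Pkmyt1, the membrane-bound relative of Wee1, did not share its higher level in KO samples. Pkmyt1 was at 148 and 161 scaled counts in the WT samples and at 144 and 147 in the KO samples. The KO samples were the lower ones, by margins within counting error. The log2 fold change was -0.09 ± 0.16 (SE, edgeR, adjusted p = 0.870), with a 95% interval from -0.49 to 0.31. Within a sample, the ratio of Wee1 to Pkmyt1 counts was 1.03 and 0.948 in WT samples against 1.37 and 1.80 in KO samples. The absolute value of such a ratio depends on how well each probe captures its target, and its change between samples does not depend on the scaling.

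The Cdc25 phosphatase genes differed little between the genotypes and not in 1 direction. Cdc25a, whose product also acts at the start of S phase, was at 471 and 507 scaled counts in the WT samples and at 457 and 421 in the KO samples. Both KO samples lay below both WT samples, with a log2 fold change of -0.16 ± 0.11 (SE, edgeR, adjusted p = 0.664) and a 95% interval from -0.42 to 0.11. Cdc25c, a phosphatase of mitotic entry, was at 279.6 and 254 scaled counts in the WT samples and at 294 and 306 in the KO samples. It was the other member besides Wee1 with both KO samples on top, at a log2 fold change of 0.17 ± 0.12 (SE, edgeR, adjusted p = 0.664) and a 95% interval from -0.13 to 0.47. Cdc25b, which acts early in mitotic entry, was at 429 and 355 scaled counts in the WT samples and at 413 and 391 in the KO samples. The KO values of Cdc25b lay between the WT values, and the log2 fold change was 0.04 ± 0.13 (SE, edgeR, adjusted p = 0.946). Wee1 and Cdc25c, 2 of the 8 members, were thus higher in each KO sample than in either WT sample, as were 11.2% of all tested genes. Pkmyt1 and Cdc25a, 2 others, were lower in each, as were 31.4% of all tested genes.

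The checkpoint kinase genes Chek1 and Chek2 and the spindle checkpoint gene Ttk were lowest in KO 2, while KO 1 was close to or above the WT samples. Chek1 was at 503 and 542 scaled counts in the WT samples and at 545 and 406 in the KO samples. Chek2 was at 148 and 160.2 in the WT samples and at 159 and 104 in the KO samples. Ttk was at 204 and 216 in the WT samples and at 245 and 174 in the KO samples. For each of these genes the groups overlapped, since KO 1 was in the range of the WT samples or above it. The log2 fold changes were -0.14 ± 0.16 for Chek1, -0.23 ± 0.24 for Chek2 and -0.01 ± 0.20 for Ttk (SE, edgeR, adjusted p = 0.776, 0.753 and 0.986). The intervals were wide, from -0.52 to 0.25 for Chek1, from -0.82 to 0.36 for Chek2 and from -0.48 to 0.47 for Ttk, so a moderate change in either direction was not detectable with these samples.

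The gap between the KO samples exceeded counting error for these 3 genes, as it did over all tested genes together (chi-square per degree of freedom of 52.5). The log2 difference of KO 2 from KO 1 was -0.62 for Chek2, -0.49 for Ttk and -0.42 for Chek1, whereas for Wee1 it was 0.41. Between WT 1 and WT 2 the same genes differed by 0.11 (Chek2), 0.08 (Ttk), 0.11 (Chek1) and 0.01 (Wee1) on the log2 scale. The Poisson interval of Chek2 reached from 85.2 to 125 scaled counts in KO 2 and from 135 to 187 in KO 1, and that of Chek1 from 369 to 447 and from 499 to 595. Without KO 2 the log2 fold changes turned to 0.06 for Chek1, 0.05 for Chek2 and 0.22 for Ttk. Without KO 1 they were -0.36, -0.57 and -0.27 in the same order. KO 2 was the lowest sample for 4 of the 8 members, these 3 and Cdc25a, and for 43.5% of all tested genes. With other scalings that share was between 33.2% and 38.8% of all tested genes, and Chek1, Chek2 and Ttk were lowest in KO 2 under each of them. The summed level of the 6 fibroblast and pericyte probes, 5 of them above background, was 147 scaled counts in KO 2, 279 in KO 1, 252 in WT 1 and 445 in WT 2. Within that list the collagen gene Col3a1 ranged from 16.2 in KO 2 to 162 in WT 2, while Col5a1 was lowest in WT 1 and Pdgfra, below background, in KO 1. The 15 leukocyte probes, 3 of them above background, summed to 254 in KO 2 against 272 to 351, although Il3ra was at 99.0 in KO 2 and 66.3 in KO 1. The part of these markers in the values of Chek1, Chek2 and Ttk was not tested.

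**Figure D2:**
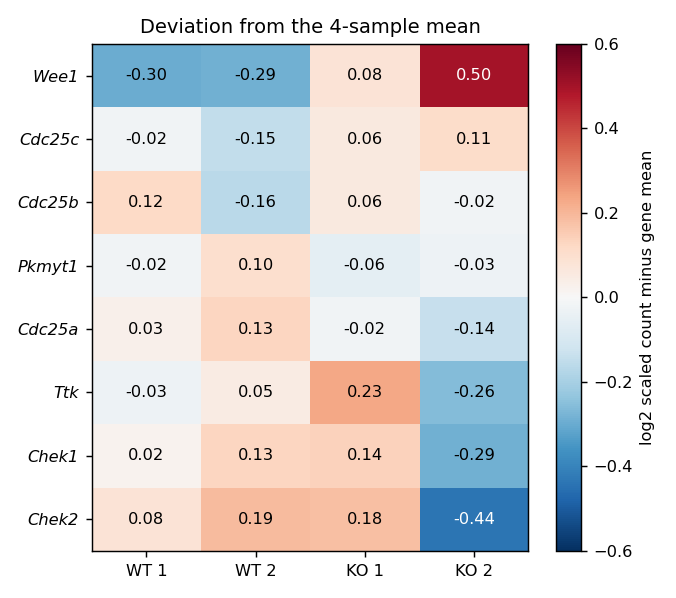
Deviation of the log2 scaled count of each gene (rows) from its mean over the 4 samples (columns), in log2 units, with red for higher and blue for lower values. Wee1 is at -0.30 and -0.29 in the WT samples and 0.50 in KO 2, opposite to Chek2, which is at -0.44 in KO 2.

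Over the 4 samples, the members fell into more than 1 pattern. As a measure of likeness, the Euclidean distance between the centred log2 profiles of a pair of genes was taken, whose median over all pairs of tested genes was 0.456. Pkmyt1 and Cdc25a were closest, at 0.121, followed by Chek1 and Ttk at 0.135 and Chek1 and Chek2 at 0.177. Wee1 was at 0.496 from Cdc25c, near that median, and between 0.672 and 1.12 from the other members, the largest distance among all pairs of members being that to Chek2. The tested genes nearest to Wee1 were Spry2, a feedback inhibitor of receptor tyrosine kinase signaling, at a distance of 0.229, Ccnd1, which encodes cyclin D1, at 0.238, and Cdkn1a, which encodes the CDK inhibitor p21, at 0.264. With 4 samples these distances are a description. The 3 genes were picked for likeness to Wee1, which was highest in KO 2, so their own highest values in KO 2 go with that choice. Spry2 was at 426 and 467 scaled counts in the WT and 484 and 709 in the KO samples. Ccnd1 was at 2719.5 and 3219 against 3322 and 4938, and Cdkn1a at 2353 and 2683 against 3053 and 5058.

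Chek1, Chek2 and Ttk had similar profiles across the samples, and the promoters of these genes are shown beside that of Cdc25a, whose profile was nearest to them among the other members with a promoter in the table used. The sequences are from RefSeq (GRCm38.p6), from 250 bases before to 50 after the annotated start of the gene, and lie at chr9:36726609-36726908 on the minus strand for Chek1, and on the plus strand at chr5:110839733-110840032 for Chek2, chr9:83834439-83834738 for Ttk and chr9:109875329-109875628 for Cdc25a. Capitals mark, on either strand, CCAAT (the box bound by NF-Y), TTTNNCGC (a form of the E2F site) and TTTGAA (the cell cycle genes homology region, CHR), where N is any base.
Chek1: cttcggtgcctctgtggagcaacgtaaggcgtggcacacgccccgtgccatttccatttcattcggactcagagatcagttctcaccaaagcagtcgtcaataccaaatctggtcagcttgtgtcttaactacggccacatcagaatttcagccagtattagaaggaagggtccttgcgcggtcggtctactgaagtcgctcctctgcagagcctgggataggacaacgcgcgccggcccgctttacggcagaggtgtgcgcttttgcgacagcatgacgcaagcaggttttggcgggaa
Chek2: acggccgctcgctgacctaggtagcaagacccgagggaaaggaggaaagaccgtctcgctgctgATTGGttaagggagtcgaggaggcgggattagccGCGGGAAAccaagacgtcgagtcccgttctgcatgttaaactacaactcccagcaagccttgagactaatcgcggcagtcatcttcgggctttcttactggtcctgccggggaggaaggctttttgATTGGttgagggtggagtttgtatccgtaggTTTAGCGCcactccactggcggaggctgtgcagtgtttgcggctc
Ttk: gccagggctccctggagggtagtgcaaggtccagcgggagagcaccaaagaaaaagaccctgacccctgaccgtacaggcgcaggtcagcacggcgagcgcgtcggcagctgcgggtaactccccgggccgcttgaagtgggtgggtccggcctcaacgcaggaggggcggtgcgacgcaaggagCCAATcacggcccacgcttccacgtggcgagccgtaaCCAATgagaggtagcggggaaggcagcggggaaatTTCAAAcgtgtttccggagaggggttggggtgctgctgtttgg
Cdc25a: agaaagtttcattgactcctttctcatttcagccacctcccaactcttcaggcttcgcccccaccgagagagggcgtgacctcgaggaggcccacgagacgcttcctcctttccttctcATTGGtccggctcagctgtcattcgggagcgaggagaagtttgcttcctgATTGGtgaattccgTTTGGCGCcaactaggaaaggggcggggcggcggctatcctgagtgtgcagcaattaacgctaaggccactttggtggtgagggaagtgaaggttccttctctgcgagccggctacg
The letters CCAAT were found at 2 places each in Chek2, Ttk and Cdc25a and at 0 places in Chek1, beside 37.4% of the 32851 promoters of 300 bases in the table. TTTNNCGC was found at 2 places in Chek2 and at 1 place in Cdc25a, and is in 5.17% of all promoters, and TTTGAA at 1 place in Ttk, just after the annotated start, and in 17.9% of all promoters. No marked letters overlapped. Other forms of the E2F site, and matches cut off at the end of a window, were not counted. None of the 3 motifs was shared by all 3 of the genes with similar profiles, and a match is a description of the sequence and not of binding.

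**Figure D3:**
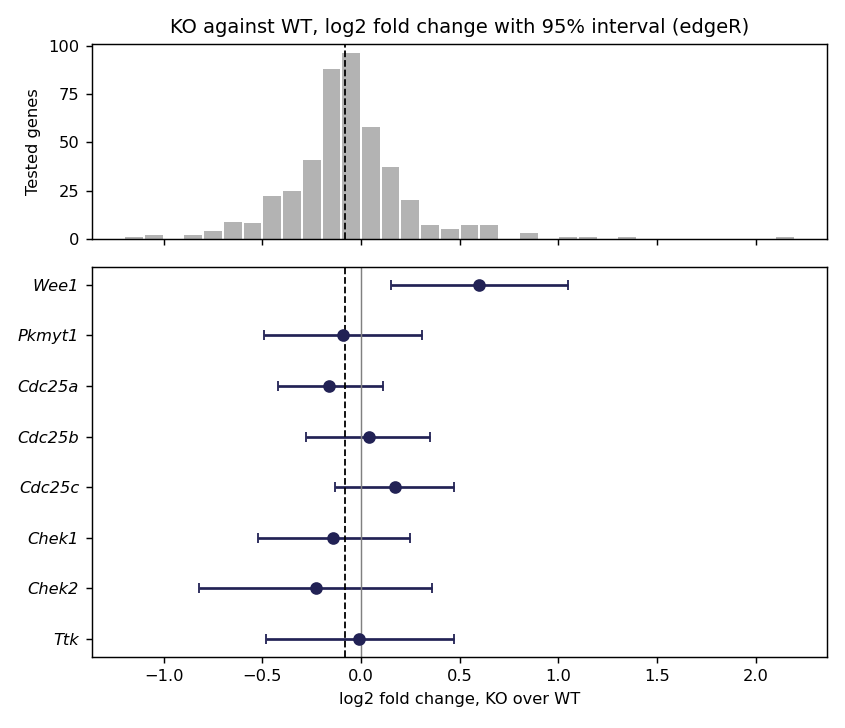
Upper panel, the number of tested genes (y axis) by log2 fold change of KO over WT (x axis), with a dashed line at their median of -0.08. Lower panel, log2 fold change (points) and 95% interval (bars) of the 8 genes from edgeR; the interval of Wee1, from 0.15 to 1.05, leaves out 0 and those of the other 7 genes do not.

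Under the 5 scalings compared, Wee1, Cdc25c and Cdc25b stayed above 0 and Cdc25a and Chek2 below it, while Pkmyt1 and Ttk changed sign and Chek1 reached 0.00. The median log2 fold change was -0.05 over the 8 members and -0.08 over all tested genes with housekeeping scaling, and 0.09 and 0.05 with positive control scaling (KO 1 had the lowest positive control counts). With housekeeping scaling 3 members were higher and 5 lower, and with positive controls 6 were higher and 2 lower. Relative to the median of all tested genes, Wee1 was higher by 0.67 to 0.68 on the log2 scale under these scalings, Cdc25c by 0.24 to 0.25 and Cdc25b by 0.11 to 0.12. Pkmyt1 lay at -0.01 and Cdc25a between -0.08 and -0.07 relative to that median. Under these scalings both KO samples stayed above both WT samples for Wee1 and Cdc25c. The lack of overlap was lost for Pkmyt1 with each of the other 4 scalings and for Cdc25a with DESeq2 size factors and positive controls. The shares of all tested genes without overlap, 11.2% higher and 31.4% lower, were taken with housekeeping scaling only.

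**Figure D4:**
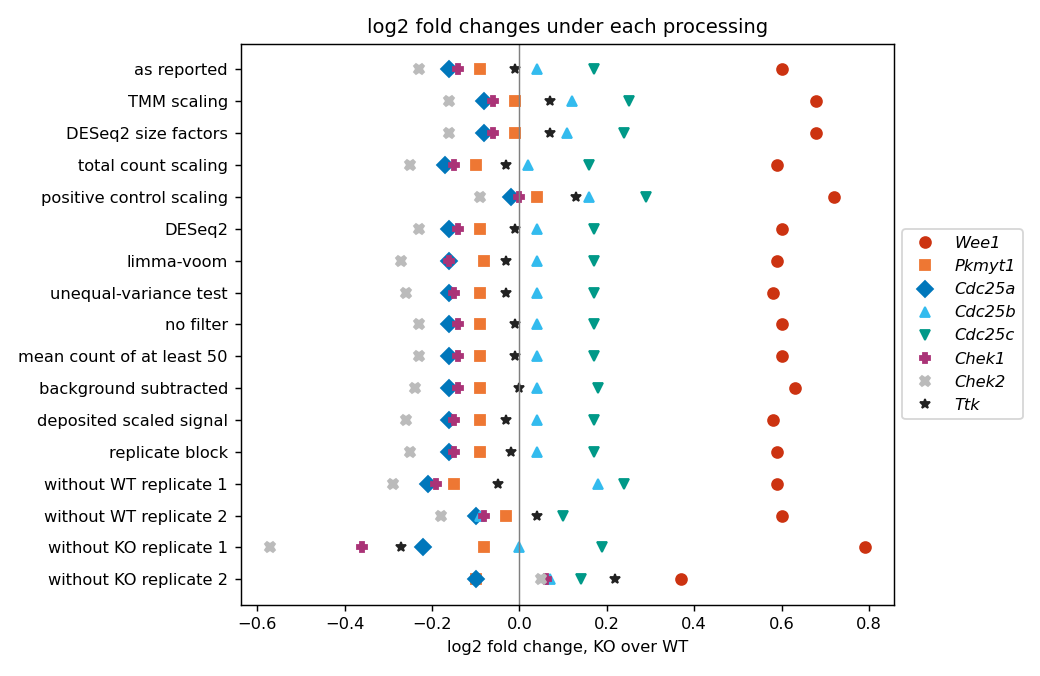
The log2 fold change of KO over WT (x axis) of the 8 genes (symbols) under the reported processing and each alternative (y axis). Wee1 lies between 0.37 and 0.79 throughout, and Chek1, Chek2 and Ttk move from below 0 to above 0 when KO 2 is left out.

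To ask whether the balance of inhibitory kinase to activating phosphatase transcripts differed, the counts of Wee1 and Pkmyt1 were divided by those of each Cdc25 gene within each sample. The ratio of Wee1 to Cdc25a was 0.323 and 0.302 in WT samples against 0.433 and 0.627 in KO samples, 1.67-fold higher. The ratio of Wee1 to Cdc25b was 0.355 and 0.431 in WT samples against 0.479 and 0.674 in KO samples, 1.45-fold higher. The ratio of Wee1 to Cdc25c was 0.544 and 0.602 in WT samples against 0.673 and 0.863 in KO samples, 1.33-fold higher. All 3 Wee1 ratios were thus higher in both KO samples than in either WT sample, by 0.74, 0.54 and 0.41 on the log2 scale, with a pooled SD within groups of 0.27, 0.28 and 0.19. For each of them the exact permutation test (two-sided) gave p = 0.333, the smallest value that 2 samples against 2 allow. Without KO 2 the log2 differences were 0.47, 0.29 and 0.23.

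The ratio of Wee1 was higher in both KO samples against most genes, not against the Cdc25 genes in particular. Of the 445 other tested genes, 390 (87.6%) gave a Wee1 ratio with both KO values above both WT values. For Pkmyt1, 0 of 3 ratios were higher in both KO samples, beside 14.8% of the other tested genes, and 1 of 3 was lower in both, beside 18.9%. The ratio of Pkmyt1 to Cdc25a was 0.315 and 0.318 in WT samples against 0.316 and 0.348 in KO samples. That of Pkmyt1 to Cdc25b was 0.346 and 0.455 against 0.350 and 0.375. The lower ratio was that of Pkmyt1 to Cdc25c, at 0.530 and 0.635 in WT samples against 0.491 and 0.480 in KO samples, a log2 difference of -0.26 with a pooled SD of 0.13 (exact two-sided permutation test, p = 0.333).

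**Figure D5:**
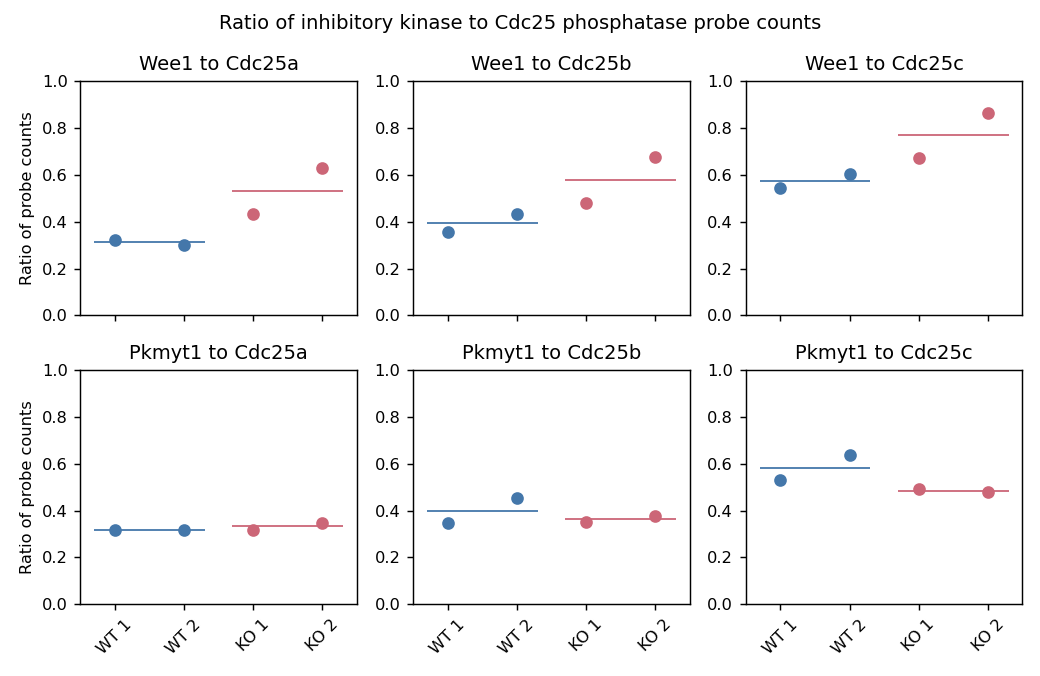
Ratio of the Wee1 (upper row) and Pkmyt1 (lower row) probe count to that of each Cdc25 gene (y axis, from 0) in each sample (x axis), with points for samples and lines for group means. The 3 Wee1 ratios are higher in both KO samples, up to 0.863 in KO 2 for Cdc25c, and the Pkmyt1 ratios to Cdc25a and Cdc25b overlap between the groups.

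Other genes of the pathway were described from lists drawn up by role, and 1 of their 45 tested genes, Cdkn1a, lay at an unadjusted p under 0.05. In the arm through p53, which holds cells in G2 after damage, 3 of 7 tested genes lay above 0 and 4 below it. Their median was -0.24 on the log2 scale, beside -0.08 over all tested genes. That median was the value of Sfn, which lay near background at 15.0 to 21.8 scaled counts. Besides Cdkn1a, Mdm2 (0.08) and Gadd45a (0.21) lay above 0, while Gadd45g (-0.32) lay below it with Trp53 and Gadd45b. Cdkn1a was higher in both KO samples, by 0.69 ± 0.24 (SE) on the log2 scale (unadjusted p = 0.0264 and adjusted p = 0.569 in edgeR), and by 0.28 without KO 2. Trp53, which encodes p53 itself, was at 654 and 677 scaled counts in the WT samples and at 587 and 526 in the KO samples (log2 fold change -0.26, adjusted p = 0.569). Gadd45b, a stress-induced gene, was at 250.3 and 338 scaled counts in the WT samples and at 211 and 241 in the KO samples (log2 fold change -0.38, adjusted p = 0.569).

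Among 7 damage kinases and adaptors upstream of Chek1 and Chek2, 3 lay above 0 and 4 below it (median -0.03), and 0 passed the unadjusted threshold; with TMM, DESeq2 size factors or positive controls more were higher than lower. Mdc1, an adaptor that binds phosphorylated H2AX at breaks, was at 344 and 314 scaled counts in the WT samples and at 309 and 197 in the KO samples. Atm, which activates Chk2, was at 363 and 378 against 364 and 304, and Brca1 at 327 and 362 against 318 and 311. Atr, which activates Chk1, was at 307 and 303 against 344 and 253. KO 2 was the lowest sample for these 4 of the 7 genes, and for 3 of 7 with TMM, DESeq2 size factors or total counts, beside 43.5% of all tested genes with housekeeping scaling. The other 3, Prkdc, Brca2 and H2afx, were at 176, 188 and 1294 scaled counts in KO 2, where Prkdc and H2afx were highest.

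Among the partners and targets, Cdk1 was not analysed here, and 2 mitotic cyclin genes were tested. Ccna2, which encodes cyclin A2, was at 1974 and 1712 scaled counts in the WT samples and at 2302 and 1670.4 in the KO samples, so that the groups overlapped. Ccnb1, which encodes cyclin B1, lay near background at 16.1 and 28.1 against 28.9 and 23.8 scaled counts. Of 7 tested genes of a list for mitosis, which were Mad2l2 and genes of sister chromatid cohesion and mitotic exit, 2 were higher and 5 lower. With TMM, DESeq2 size factors or positive controls, 4 were higher and 3 lower. Smc3, a cohesin subunit gene, was at 2329 and 2204 scaled counts in the WT samples and at 2111 and 1490.5 in the KO samples, while Mad2l2 was at 221 and 242 against 265 and 245. Cdc14a, a phosphatase gene, was at 234 and 273 against 235 and 215. Of 4 tested regulators of the checkpoint proteins, Fbxw7, a substrate receptor of a ubiquitin ligase, was at 156 and 184 scaled counts in the WT samples and at 142 and 146 in the KO samples. Ppp2r1a, a scaffold of phosphatase PP2A, was at 4099.6 and 4091 against 4067 and 4449.5, and the kinase gene Akt1 at 5822 and 5719.7 against 5727 and 6029.

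KO 2 was also the lowest sample for most S phase genes, by margins that differed between genes and with a count that depended on the scaling. Of 18 tested replication licensing and S phase genes, 15 were lowest in KO 2, beside 43.5% of all tested genes, and with the other scalings between 11 and 14 were. The exceptions with housekeeping scaling were Rfc3, Rfc4 and Pold1, and Ccne1, which encodes cyclin E1, was at 249 in KO 2 and 253 in WT 1. Between the genotypes 4 lay above 0 and 14 below it (median -0.04), with 0 at an unadjusted p under 0.05, whereas with TMM or DESeq2 size factors 11 were higher and 7 lower, and with positive controls 12 and 6. Cdc7, a kinase of replication origins, was at 93.5 and 104 scaled counts in the WT samples and at 86.6 and 59.0 in the KO samples (log2 fold change -0.44, adjusted p = 0.658). Cdk2 was at 3490.3 and 3579.7 against 3089.9 and 2936, and Rfc4, a subunit of the clamp loader, was at 397 and 375 in WT samples against 482 and 411 in KO samples.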

How the data were processed

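CD45− tumor cells of 2 WT and 2 KO mouse samples were assayed by the authors with 100 ng of RNA each on the nCounter Mouse PanCancer Pathways panel. Deposited were raw counts for 750 gene, 20 housekeeping, 8 negative and 6 positive control probes. They also deposited scaled signal, that is each count times 1 factor per sample (0.877 to 0.986) with a floor of 17; their origin is not stated in the sources. The authors used nSolver 4.0.

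Sample factors came from geometric means over housekeeping probes (all 20 had a mean count of at least 100; factors 0.935 to 1.059). Background was set at the negative controls' mean + 2 SD, and gene probes above it in at least 2 samples were tested (446; 304 left out) by the quasi-likelihood test of edgeR 4.0.16 (design with genotype alone, two-sided, Benjamini-Hochberg adjustment over all 446, threshold 0.05) in R 4.3.3. The F statistics gave the standard errors. A run of the fit on simulated data with known folds set a condition on the error of the fold change alone, not on false calls. Alternatives were 4 other scalings, DESeq2 1.42.0, limma-voom and limma 3.58.1 on the deposited signal (log2, pseudocount of 1), an unequal-variance test, other filters, background subtraction, the replicate block and leaving out each sample.

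The labels number the samples within a group and do not say that each came from a separate animal, so p-values measure the spread between these samples. No pair of samples agreed within counting noise (chi-square per degree of freedom of at least 12.8). The correlation across genes between deviations of equally numbered samples was 0.039. Named genes are the 8 members, from each pathway list the genes at an unadjusted p under 0.05 filled up to 3 by lowest p, and the 3 genes nearest to the member of lowest p; Atr was added after its values were seen. The members and lists were chosen with earlier results of these data known. Probes were matched to RefSeq symbols (GRCm38.p6) by transcript accession for 8 of 8 members; promoters of 5 members were in the table.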

Additional observations from a re-analysis of the deposited data

How the results depend on the processing

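Wee1 was higher in KO samples under all 16 alternatives, with a log2 fold change from 0.37 to 0.79. In the alternatives that kept all 4 samples, its unadjusted p was under 0.05 except with the unequal-variance test (0.218). Its adjusted p in these ranged from 0.254 (edgeR with the replicate block) to 0.891 (unequal-variance test). The number of members at an unadjusted p under 0.05 was 1 as reported, 0 with the unequal-variance test and 0 to 3 without 1 sample, the 3 (Wee1, Chek1 and Chek2) without KO 1. Genes past the adjusted threshold numbered 0 as reported, 3 with DESeq2, 1 with the replicate block and 0 to 20 without 1 sample, the 20 without KO 1. A fit without 1 sample has a lone sample in 1 group, and so no spread within that group. The share of all tested genes under the unadjusted threshold is not given for the fit without KO 1. The 3 members there thus have no background to be set against, and no conclusion is drawn from them. Equal replicate numbers were not read as pairs, and the block changed no call of a member.

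The ratios with both KO samples on top were 3 as reported and 3 to 5 without 1 sample, where the lone sample of a group makes the condition easier to meet. Signs turned for members near 0. With positive controls the log2 fold change was 0.04 for Pkmyt1, 0.00 for Chek1 and 0.13 for Ttk, and that of Ttk was 0.07 with TMM and with DESeq2 size factors. Without 1 sample it ranged from -0.09 to 0.18 for Cdc25b, from -0.36 to 0.06 for Chek1, from -0.57 to 0.05 for Chek2 and from -0.27 to 0.22 for Ttk. The cause of these changes was not tested. With 109 to 533 counts per value and 2 samples per group, the 95% interval of a member reached a median of 0.39 to either side on the log2 scale.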
